A study of Homo sapiens with 6 samples.

Results

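The cytosolic nucleic acid sensors and their adaptors were followed in RCC4 cells, an established human line from a clear cell renal cell carcinoma, with and without a pair of inflammatory cytokines. The 10 genes were selected by name, as known sensors and adaptors, out of 61541 in the count tables: the RNA sensors DDX58 (RIG-I, now also named RIGI), IFIH1 (MDA5), DHX58 (LGP2), TLR3, ZBP1 and EIF2AK2 (PKR), the DNA sensors CGAS and IFI16, and the adaptors MAVS and STING1. This choice was made with earlier results of these data known. In the treated group, 3 cultures received interferon gamma (IFNγ, 1000 U/mL) and tumour necrosis factor (TNF, 25 ng/mL) for 24 h. The other 3 cultures were untreated and shared the line and the growth medium. Each biological replicate was grown in 3 flasks, per the labels' protocols, and a single tumour line stands for the tissue. Poly(A)+ RNA was read directly on nanopores, from the 3′ end of each molecule. The comparison asks how the 2 cytokines given together alter the level of each sensor, and no culture received either cytokine alone.

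Foreign or misplaced nucleic acid is recognised by separate families of proteins. DDX58 and IFIH1 are helicases that bind viral-type RNA in the cytosol and signal through MAVS on the outer mitochondrial membrane, while DHX58 is a related helicase that lacks the signalling domains and modulates them. TLR3 binds double-stranded RNA in endosomes and so is a relative of this group rather than a cytosolic protein. EIF2AK2 is a kinase that halts translation by phosphorylating the initiation factor eIF2α once it binds double-stranded RNA, and ZBP1 binds nucleic acid in the left-handed Z form and can start necroptosis. CGAS makes the messenger cGAMP when it meets DNA, and cGAMP activates STING1 on the endoplasmic reticulum. IFI16 is a DNA-binding protein found mostly in the nucleus. MAVS and STING1 both pass the signal to the kinases TBK1 and IKBKE and to the transcription factors IRF3 and IRF7, which induce interferon genes. Several of the sensors are themselves known as interferon-induced genes.

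Promoter sequences were available for 6 of the 10 members (RefSeq, GRCh38.p14), as 7 entries because IFI16 had 2. Each was searched on both strands from 250 bases before the transcription start to 25 bases into the transcript. The motifs were the gamma-activated site TTCNNNGAA, an interferon gamma response motif; the core of the interferon-stimulated response element, read as a pair of GAAA repeats with 2 bases between them; and the kappaB consensus, bound by NF-kappaB. Of 35116 promoters, 7.18% held the first motif, 3.35% the response element core and 5.53% the kappaB consensus. A response element core with 1 base between its repeats, GAAANGAAA, was added after the sequences had been seen and stood in 2.94%. The 4 windows printed here show the members that differed most in matches, from the RNA sensor with the most to the adaptor with none, with the matches in capitals and each sequence read along the strand of its gene.

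IFIH1 (chr2:162318660-162318934, minus strand): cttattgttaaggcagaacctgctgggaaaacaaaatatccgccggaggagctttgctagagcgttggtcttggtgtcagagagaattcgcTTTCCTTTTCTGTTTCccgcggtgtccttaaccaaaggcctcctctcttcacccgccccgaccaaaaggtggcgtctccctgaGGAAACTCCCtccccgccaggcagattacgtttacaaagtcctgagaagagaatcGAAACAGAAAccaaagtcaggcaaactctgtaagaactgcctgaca
TLR3 (chr4:186068906-186069180, plus strand): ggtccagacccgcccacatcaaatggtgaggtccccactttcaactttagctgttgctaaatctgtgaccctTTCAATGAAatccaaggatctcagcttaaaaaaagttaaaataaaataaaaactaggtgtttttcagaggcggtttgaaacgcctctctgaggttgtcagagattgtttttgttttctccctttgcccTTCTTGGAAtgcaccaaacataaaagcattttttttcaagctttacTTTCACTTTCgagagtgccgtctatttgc
EIF2AK2 (chr2:37156956-37157230, minus strand): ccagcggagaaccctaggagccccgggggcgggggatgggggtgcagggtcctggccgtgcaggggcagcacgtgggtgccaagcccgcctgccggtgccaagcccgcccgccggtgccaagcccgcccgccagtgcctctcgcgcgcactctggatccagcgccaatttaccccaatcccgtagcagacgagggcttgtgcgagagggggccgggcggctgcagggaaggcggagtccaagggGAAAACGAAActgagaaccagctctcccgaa
MAVS (chr20:3846584-3846858, plus strand): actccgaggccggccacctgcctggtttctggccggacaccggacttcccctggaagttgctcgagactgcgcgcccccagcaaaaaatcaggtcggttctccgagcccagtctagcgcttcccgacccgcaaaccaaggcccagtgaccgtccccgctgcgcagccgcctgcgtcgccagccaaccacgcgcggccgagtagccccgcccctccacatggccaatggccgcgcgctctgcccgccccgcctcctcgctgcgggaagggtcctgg

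IFIH1 held the response element core at -159 and -153, where the matches overlap each other on the opposite strand, and at -21, with a kappaB match at -76. TLR3 held gamma-activated sites at -178 and -50 and a response element core at -4. EIF2AK2 held a single response element core at -6. The DDX58 window held a kappaB match at -76 and the variant with 1 base between the repeats at -203, and one of the IFI16 entries held that variant at -54. None of the 4 motifs occurred in the MAVS window, which says only that these letters are not in this stretch. Positions give the first base of the match relative to the transcription start, and a match is a string of letters, not a measured binding site. The search covered none of DHX58, ZBP1, STING1 and CGAS.

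The 6 libraries held between 3626000 and 4406296 counts, and levels are given as CPM, the counts relative to the normalised library size. A count of 0 allowed a level of up to 0.677 to 0.866 CPM, by library. That limit takes 3 counts and covers counting error only. Replicates differed by more than counting noise, with a chi-square per degree of freedom of 3.48 to 24.7, and untreated replicate 3 stood apart from the other untreated libraries on the second principal component, which held 27.1% of the variance. The renal epithelial markers were expressed, all 12 of 12 passing the filter on low counts, with a median log2 fold change of -0.02, 2 higher, 2 lower and 8 not past the threshold. NNMT rose from 999 ± 63.9 to 3116 ± 723 CPM (SD, n = 3; edgeR adjusted p = 0.000855) and VIM from 4616 ± 311 to 7314 ± 907 CPM (0.0274). KRT19 fell from 367 ± 42.6 to 174 ± 36 CPM (edgeR adjusted p = 0.00995) and PAX8, a renal lineage factor, from 145 ± 16.4 to 84.1 ± 11.5 CPM (0.0316). The calls of VIM, KRT19 and PAX8 were each lost in some of the fits without a single library. Markers of leukocytes, which also express these sensors, summed to at most 0.785 CPM untreated and 2.28 CPM treated, with 6 of 11 at 0 in every library, PTPRC, CD3E and LYZ among them. All 5 endothelial markers and 4 of 6 fibroblast markers were at 0. The remaining fibroblast markers, COL1A1 and PDGFRB, were expressed. COL1A1 stood at 55.8 ± 10 CPM untreated and 36.2 ± 11.1 CPM treated (edgeR adjusted p = 0.23). PDGFRB stood at 10.3 ± 0.867 and 2.72 ± 0.127 CPM.

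Treated cells carried more RNA of 5 of the 10 sensors and adaptors. The 10 members together made up 117, 124 and 143 CPM in the untreated libraries and 387, 407 and 586 CPM in the treated ones, without overlap. Of the 8 members with enough counts to be tested, 5 rose: IFIH1, DHX58, ZBP1, CGAS and STING1. None fell, also at an unadjusted p under 0.05 (edgeR), which 8.85% of all tested genes met as lower, and DESeq2 called 6 higher and 0 lower, limma voom 5 and 0. Over all 10067 genes tested, 8.14% passed the threshold of an adjusted p under 0.05, 5.58% as higher and 2.55% as lower, which is 562 and 257 genes, or 485 and 364 on library totals alone. The groups did not overlap, with the treated libraries above, in 7 of the 8 tested members and in 13.9% of all genes tested, and groups lay apart in either direction in 25.9%. The median log2 fold change was 2.43 over the tested members and -0.03 over all tested genes. These counts need care, because the filter required at least 3 libraries at a minimum of 2.59 CPM, which stands for 10 counts. ZBP1 reached that minimum in 0 untreated libraries, IFIH1 and DHX58 in 1 each and IFI16 in 2, so these genes entered the test largely through the treated group. In RNA from whole cultures, more RNA per cell and more cells that express a gene cannot be told apart.

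**Figure D1:**
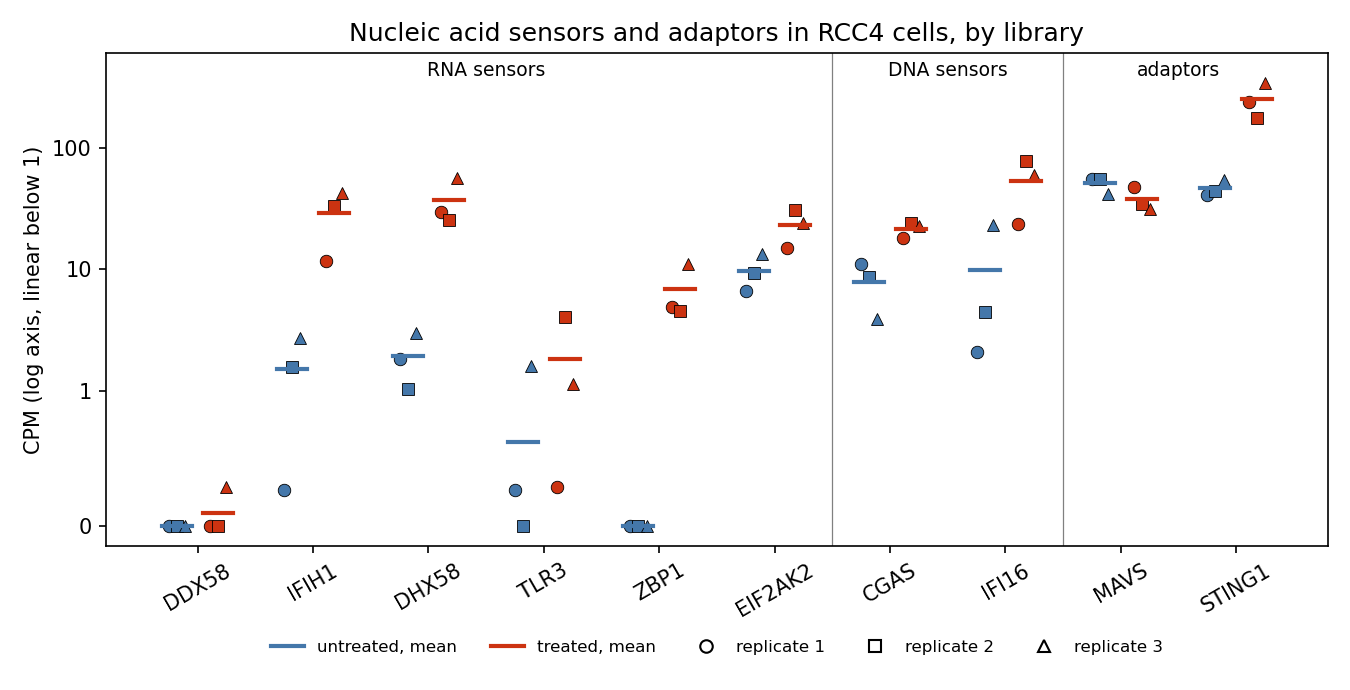
Level of each member in each library, in CPM on a log axis that is linear below 1, with RNA sensors, DNA sensors and adaptors separated by vertical lines, 1 point for each library shaped by replicate number and a bar for each group mean. The treated points lie above the untreated ones for IFIH1, DHX58, ZBP1, EIF2AK2, CGAS, IFI16 and STING1, overlap them for MAVS and TLR3, and lie at or near 0 for DDX58.

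DDX58, the sensor of short RNA with a 5′ triphosphate, received almost no counts. Its gene (ENSG00000107201, chromosome 9, 32455302 to 32526208 on the minus strand of GRCh38) received 0, 0 and 0 counts in the untreated libraries and 0, 0 and 1 in the treated ones. Its exons overlap those of a second annotated gene on the same strand, ENSG00000288684 (32455323 to 32552603), which has no symbol in the table of names used and received 0 counts in all 6 libraries. The overlap covers 4471 bases, or 43.2% of the 10345 exonic bases of DDX58 and 97.9% of the last 1000 bases at its 3′ end, where nanopore reads of RNA begin. By the defaults of the counting program, reads falling on exons of both genes are assigned to neither. The other 5874 exonic bases of DDX58 are not shared with any gene on that strand. No level and no fold change is given for DDX58. Whether its RNA was low or its reads went uncounted was not tested, nor was any change in it. It was the 1 member of 10 with shared exonic bases.

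**Figure D2:**
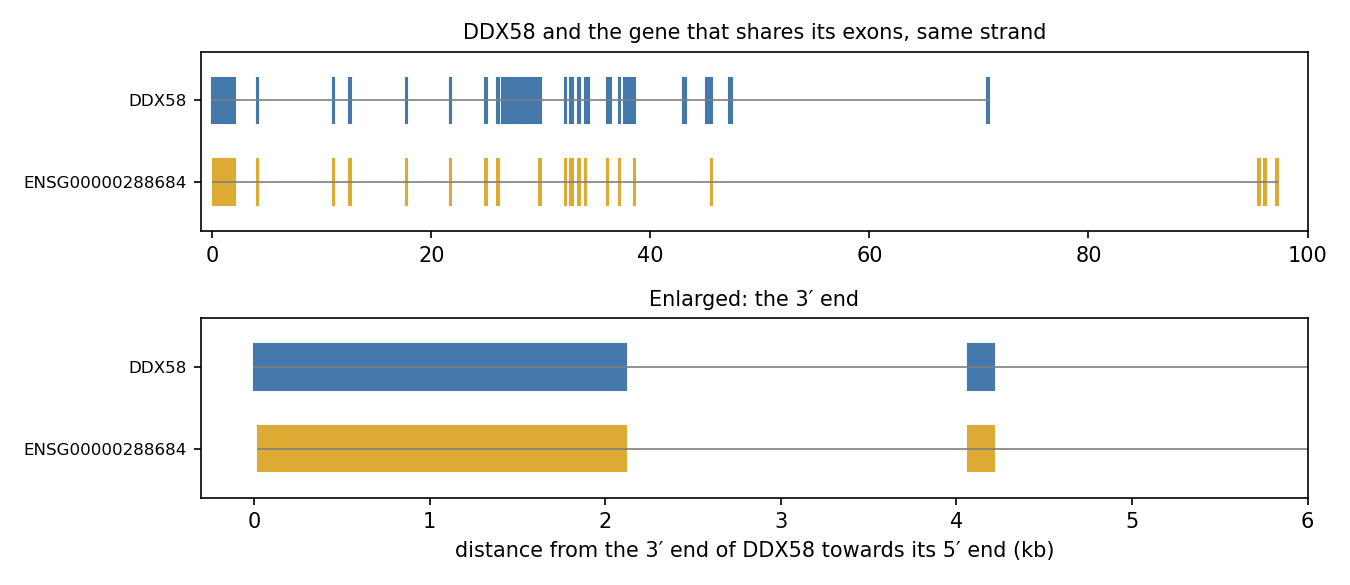
Exons of DDX58 and of ENSG00000288684 as annotated in the count tables, plotted by distance in kb from the 3′ end of DDX58 towards its 5′ end, once over the whole locus and once near the 3′ end. The 3′ end of DDX58 lies almost wholly inside an exon of the other gene, which is 97.9% of the last 1000 bases.

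IFIH1, the sensor of long double-stranded RNA, rose 18.4-fold. Its gene (ENSG00000115267) spans chromosome 2, 162267074 to 162318684 on the minus strand. The untreated libraries stood at 0.262, 1.55 and 2.73 CPM, from 1, 6 and 12 counts, and the treated ones at 11.6, 33.2 and 42.5 CPM, from 40, 147 and 149 counts. The lowest treated library was thus above the highest untreated one, and within the treated group replicate 1 was the lowest. The log2 fold change was 4.20 (SE 0.65, approximate 95% interval 2.92 to 5.48) with an edgeR adjusted p of 0.00424, and it was 4.95 without untreated replicate 3. All 15 alternative fits kept the call. IFIH1 reached the filter minimum in only 1 untreated library, so it entered the main test largely through the treated group.

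DHX58, the helicase that modulates the other members of its family, rose by the same fitted amount, 18.4-fold. It lies on chromosome 17 (ENSG00000108771, 42101404 to 42112714, minus strand). It had 1.83, 1.03 and 2.96 CPM untreated, from 7, 4 and 13 counts, against 29.5, 25.3 and 55.9 CPM treated, from 102, 112 and 196 counts. Here treated replicate 3 was the highest and the other treated libraries lay close to each other, well above every untreated one. The log2 fold change of 4.20 had an SE of 0.46 and an interval of 3.31 to 5.09 (edgeR adjusted p = 0.000513), and all 15 alternative fits kept the call. Like IFIH1, DHX58 reached the filter minimum in only 1 untreated library and entered the main test largely through the treated group.

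The ratio of these helicases differed between the groups by less than the spread of the replicates. The log2 ratio of IFIH1 to DHX58, taken within each library on CPM with 1 added, was -1.17, 0.33 and -0.09 untreated and -1.28, 0.38 and -0.39 treated. Replicate 1 was the lowest of both groups and replicate 2 the highest. The group difference of -0.12 gave a p of 0.8 in a 2-sided exact permutation test (0.8 adjusted over the 2 pairs tested), where 3 against 3 libraries allow no p under 0.1. Without treated replicate 1 the difference was 0.30, and without untreated replicate 2 it was 0.20. The untreated levels of both genes were near the 1 CPM added, so the untreated ratios depend on that choice. With 0.5 added instead, the difference was -0.01.

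ZBP1, the Z-nucleic acid sensor, was not detected in untreated cells and was present in all 3 treated libraries. The gene (ENSG00000124256, chromosome 20, 57603846 to 57620576, minus strand) had 0 counts in each untreated library. The treated libraries held 17, 20 and 39 counts, or 4.91, 4.51 and 11.1 CPM. The treated mean of 6.85 ± 3.71 CPM (SD, n = 3) was 9.16 times the upper limit for the untreated group. That limit takes 3 counts for each untreated library as the most that 0 allows (a mean of 0.748 CPM). The ratio leaves out the spread of the treated libraries, the lowest of which had 4.51 CPM. The edgeR adjusted p was 0.00432, and all 15 alternative fits kept the call. ZBP1 reached the minimum of the filter on low counts in treated libraries only. It therefore had to differ to be tested, and the call adds little to the counts.

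EIF2AK2, the kinase PKR, lay higher in each treated library than in any untreated one, but the difference missed the threshold. The gene (ENSG00000055332, chromosome 2, 37099210 to 37157522, minus strand) stood at 6.55, 9.31 and 13.2 CPM untreated and 15, 30.5 and 24 CPM treated. The gap between the groups was small, from 13.2 to 15 CPM. The log2 fold change was 1.25 (SE 0.35, interval 0.57 to 1.94) with an edgeR adjusted p of 0.0628. Of the 15 alternative fits, 8 passed the threshold, among them DESeq2 (adjusted p = 0.0171) and the edgeR fit without untreated replicate 3 (0.0121), and the highest adjusted p of any was 0.199.

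TLR3, the endosomal receptor, was at the edge of detection. This gene on the plus strand of chromosome 4 (ENSG00000164342, 186069155 to 186088073) had 1, 0 and 7 counts untreated and 1, 18 and 4 counts treated, which is 0.262, 0 and 1.59 CPM against 0.289, 4.06 and 1.14 CPM. The groups overlapped, and 1 library in each group held most of the reads. It did not pass the filter on low counts. In the fit of every gene with at least 1 count its log2 fold change was 1.54 with an edgeR adjusted p of 0.264, so no difference was detectable at this depth.

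Of the DNA sensors, CGAS rose 2.76-fold. The gene (ENSG00000164430, chromosome 6, 73413515 to 73452297, minus strand) had 11, 8.53 and 3.87 CPM untreated, from 42, 33 and 17 counts, and 17.9, 23.9 and 22.5 CPM treated, from 62, 106 and 79 counts. The treated libraries were close to each other and all above the untreated ones, of which replicate 3 was the lowest. The log2 fold change was 1.47 (SE 0.36, interval 0.76 to 2.18) with an edgeR adjusted p of 0.0398. That call was near the threshold and held in 9 of 15 alternative fits: the adjusted p was 0.0525 on library totals alone, 0.0584 without both libraries numbered 3, 0.119 without untreated replicate 2, and 0.0668, 0.13 and 0.14 without treated replicates 1, 2 and 3.

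IFI16 had the widest spread among the untreated libraries. The gene (ENSG00000163565, chromosome 1, 158999968 to 159055155, plus strand) stood at 2.09, 4.4 and 23 CPM untreated, from 8, 17 and 101 counts, and at 23.7, 77.2 and 59.6 CPM treated, from 82, 342 and 209 counts. Untreated replicate 3 was 7.09 times the mean of the other untreated libraries and almost reached the lowest treated library. The SD of its untreated log2 values, 1.53, was larger than that of 99.8% of the genes tested. With all libraries the log2 fold change was 2.42 (SE 0.74, interval 0.97 to 3.87) and the edgeR adjusted p 0.0879, past the threshold in 5 of 15 alternative fits. Without untreated replicate 3 the log2 fold change was 4.02 (adjusted p = 0.000333), and without both libraries numbered 3 it was 3.96 (0.00342).

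The adaptors differed from each other. STING1, on which the DNA-sensing route converges, had the highest mean CPM of the members in treated cells. Untreated, its mean of 46.1 CPM was close to the 50.7 CPM of MAVS, and STING1 ranked first there only per exonic length. Its gene (ENSG00000184584, chromosome 5, 139475533 to 139482935, minus strand) stood at 40.6, 44 and 53.7 CPM untreated, from 155, 170 and 236 counts, and at 237, 174 and 338 CPM treated, from 819, 770 and 1185 counts. Every treated library was more than 100 CPM above every untreated one. STING1 rose 5.4-fold, a log2 fold change of 2.43 (SE 0.27, interval 1.91 to 2.96; edgeR adjusted p = 0.000574), and all 15 alternative fits kept the call.

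MAVS, the adaptor of the RNA helicases, did not pass the test. The gene (ENSG00000088888, chromosome 20, 3846799 to 3876123, plus strand) had 54.7, 55.6 and 41.7 CPM untreated, from 209, 215 and 183 counts, against 47.4, 34.5 and 31.4 CPM treated, from 164, 153 and 110 counts. The groups overlapped, treated replicate 1 lying above untreated replicate 3. The log2 fold change was -0.42 (SE 0.23, interval -0.87 to 0.02) with an edgeR adjusted p of 0.362, and 0 of 15 alternative fits passed, with adjusted p-values from 0.0891 to 0.758. It was the 1 tested member with a negative fold change, in a transcriptome where 47.3% of the tested genes had a positive one. Its interval ended below the lower bounds of IFIH1, DHX58, CGAS and STING1. It also ended below those of EIF2AK2 (0.57) and IFI16 (0.97), which did not pass the threshold.

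**Figure D3:**
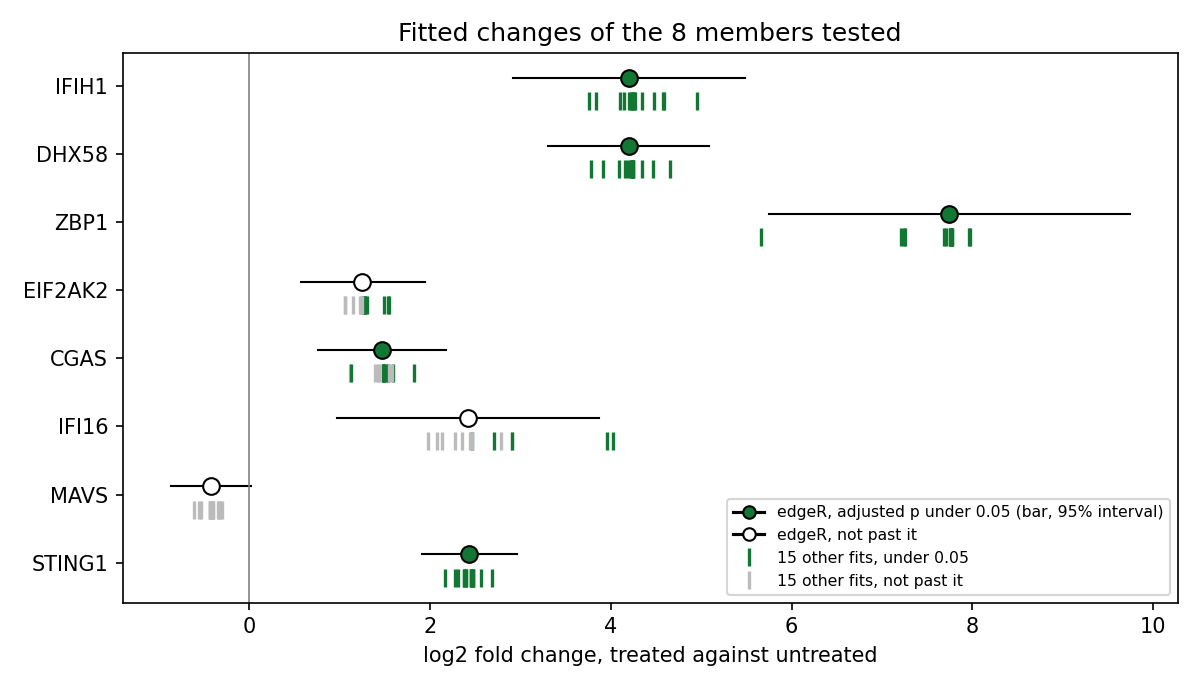
Fitted log2 fold change of the 8 members tested, treated against untreated, with points for the edgeR fit, bars for the approximate 95% interval and ticks for the 15 alternative fits, coloured by whether the adjusted p was under 0.05. IFIH1, DHX58, ZBP1, CGAS and STING1 passed, the ZBP1 value being no size estimate because it was at 0 untreated, and MAVS was the only one below 0.

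Within the cGAS-STING pair, the enzyme and its adaptor were also compared library by library. The log2 ratio of CGAS to STING1 was -1.79, -2.24 and -3.49 untreated and -3.65, -2.81 and -3.85 treated. The groups overlapped, since untreated replicate 3 lay below treated replicate 2. The difference of -0.93 had a p of 0.2 in the 2-sided exact permutation test, 0.4 adjusted over the 2 pairs.

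The order of the members by level per length was not the same in the 2 groups. On the scale of CPM per kilobase of exonic length, untreated cells had STING1 at the top with 9.61 ± 1.42, then MAVS with 4.3 ± 0.662 (SD, n = 3). CGAS with 1.87, IFI16 with 1.86, EIF2AK2 with 0.878, DHX58 with 0.508, IFIH1 with 0.297 and TLR3 with 0.092 followed. Of these neighbours, only STING1 and MAVS, and MAVS and CGAS, had ranges that did not overlap. In treated cells STING1 remained at the top with 52 ± 17.3 CPM per kilobase, above the range of IFI16 with 10.1 ± 5.15. DHX58 with 9.64 ± 4.34, IFIH1 with 5.71 ± 3.12 and CGAS with 5.14 ± 0.755 came next, and their neighbouring ranges overlapped. MAVS, in second place untreated, was sixth treated with 3.21 ± 0.719, its range below that of CGAS, followed by EIF2AK2 with 2.1 ± 0.703 and ZBP1 with 1.27 ± 0.686. TLR3 was below the range of ZBP1, with a mean of 0.272. DDX58 is left out of this order, and exonic length sums every annotated exon, so these values rest on the annotation and not on the isoforms present. The order also rests on the division by length, although each read starts at the 3′ end of a molecule. By mean CPM, MAVS was the highest member untreated with 50.7, next to 46.1 for STING1. In treated cells MAVS had a mean of 37.8 CPM, below STING1 with 249 and IFI16 with 53.5. It lay close to DHX58 with 36.9 and above IFIH1 with 29.1. The place of MAVS below DHX58, IFIH1 and CGAS in treated cells was thus seen only per exonic length. In CPM, MAVS and CGAS stood the other way round in treated cells. MAVS had 47.4, 34.5 and 31.4 CPM there, and CGAS 17.9, 23.9 and 22.5 CPM.

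The untreated libraries were not alike in these genes. Replicate 3 was the highest of the untreated libraries in 5 of the 8 tested members, as it was in 45.4% of all genes tested, and the lowest in 2 of 8, against 41.1%. Its level relative to the mean of the other untreated libraries was 3.01 for IFIH1, 2.07 for DHX58, 1.67 for EIF2AK2 and 1.27 for STING1, next to the 7.09 of IFI16. It was 0.396 for CGAS and 0.756 for MAVS. Treated replicate 1 was the lowest treated library in 4 of the 8 members, against 36.5% of all genes. What sets untreated replicate 3 apart was not tested.

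Beyond the sensors, 90 genes of the sensing pathways were read in 7 lists, also chosen with earlier results of these data known. Of the 64 that were tested, 18 rose and 0 fell (edgeR; 1 was lower at an unadjusted p under 0.05), while 46 did not pass. Over all genes tested the shares were 5.58% higher, 2.55% lower and 8.85% lower at an unadjusted p under 0.05. The median log2 fold change was 0.14 over the 64 and -0.03 over all genes. NLRP3 and CASP1, both among the 18, reached the minimum of the filter on low counts in treated libraries only, so they had to differ to be tested. Of the 18 calls, 12 held when any 1 library was left out. The other 6 were lost in at least 1 such fit.

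In the signalling relay below the adaptors, 2 of 11 tested genes rose and 0 fell, with a median log2 fold change of 0.75. IRF7, the interferon-inducible partner of IRF3, stood at 11, 15.3 and 12.1 CPM untreated and 196, 140 and 255 CPM treated (log2 fold change 3.94, SE 0.28, edgeR adjusted p = 4.03e-05). IKBKE, a kinase that phosphorylates both factors, rose from 24.4 ± 5.42 to 81.6 ± 12.1 CPM (log2 fold change 1.74, SE 0.23, edgeR adjusted p = 0.00162). Each treated library was above each untreated one for both genes. IRF3 stood at 113 ± 33.5 CPM untreated and 213 ± 22.6 CPM treated without passing (log2 fold change 0.92, edgeR adjusted p = 0.0504), and TRADD likewise (0.76, adjusted p = 0.0742). TBK1, the other kinase of the relay, had 0, 1 and 3 counts untreated and 0, 5 and 1 treated, too few to compare, and is named after its values were seen.

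Among cofactors that assist the sensors, 3 of 14 tested genes rose and 0 fell, with a median of -0.04. ZNFX1, an RNA helicase-like protein that cooperates with MAVS, stood at 27.2, 29 and 33.9 CPM untreated and 172, 169 and 202 CPM treated (log2 fold change 2.59, SE 0.19, edgeR adjusted p = 4.39e-05). The ubiquitin ligase TRIM25, which acts on DDX58, rose from 25 ± 2.4 to 58.4 ± 11.8 CPM (edgeR adjusted p = 0.00832, 0.0592 without untreated replicate 2). TRIM56, a ligase of the cGAS-STING route, rose from 8.18 ± 1.99 to 20.4 ± 3.13 CPM (edgeR adjusted p = 0.0182), and its call was lost without untreated replicate 2 (0.084), treated replicate 1 (0.069) or treated replicate 3 (0.0505). The carriers SURF4 and TMED2, which take part in STING1 traffic, did not pass, with log2 fold changes of -0.38 and -0.04. Both carriers had overlapping groups.

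Other sensors outside the chosen set gave 3 rises and 0 falls in 9 tested genes, with a median of 0.01, against 5.58% called higher over all genes. NLRP3, tested through the treated group alone, is 1 of the 3. DDX60L, a helicase, rose from 4.98 ± 0.835 to 16.4 ± 5.2 CPM (log2 fold change 1.72, edgeR adjusted p = 0.0107). ZC3HAV1 (ZAP), which binds CpG-rich RNA, rose from 11.3 ± 1.7 to 37.3 ± 4.02 CPM (1.72, adjusted p = 0.00156). NLRP3, an inflammasome sensor, went from 3, 0 and 0 counts to 21, 15 and 10, a pooled ratio of 16.3 with a counting interval of 5.23 to 81.7 (edgeR adjusted p = 0.0249). Its call was lost without untreated replicate 2 (0.106) or treated replicate 1 (0.0891), 2 (0.064) or 3 (0.0658). DDX41 and DHX9 did not pass, with log2 fold changes of -0.29 and 0.05. The endosomal receptors TLR7, TLR8 and TLR9 and the DNA-binding relatives of IFI16, PYHIN1 and MNDA, were at 0 in all 6 libraries, although for TLR9 99.9% of the last 1000 bases are shared with another gene.

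Genes that restrain sensing gave 4 rises and 0 falls in 13 tested genes, with a median of 0.06. SAMHD1, which degrades deoxynucleotides, stood at 5.24, 4.4 and 9.56 CPM untreated and 76, 100 and 108 CPM treated (log2 fold change 3.87, SE 0.32, edgeR adjusted p = 8.73e-05). ADAR, which edits double-stranded RNA and so keeps it from IFIH1, rose from 86 ± 8.16 to 234 ± 9.28 CPM (1.45, SE 0.16, adjusted p = 0.000692). TNFAIP3 (A20), a ubiquitin editor that limits NF-kappaB signalling, rose from 9.45 ± 2.46 to 156 ± 45.5 CPM (4.04, SE 0.30, adjusted p = 4.39e-05). In the same comparison, therefore, these restraining genes rose beside IFIH1 and STING1. The deubiquitinase CYLD rose from 14.2 ± 2.91 to 31.6 ± 4.1 CPM (edgeR adjusted p = 0.0175), a call lost on library totals alone (0.0506) and without untreated replicate 1 (0.0504), untreated replicate 2 (0.0951), treated replicate 2 (0.0591) or treated replicate 3 (0.0706). BANF1, which shields DNA from CGAS, and PCBP2, which targets MAVS, did not pass (log2 fold changes 0.06 and -0.05). TREX1, the exonuclease that removes cytosolic DNA, was at 0 in all libraries, with 100% of its exonic bases shared with another gene, so it was not measurable here.

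The death partners of ZBP1 and of the inflammasomes gave 6 rises and 0 falls in 8 tested genes, with a median of 1.31, and CASP1 counts in both although it was tested through the treated group alone. Over all genes tested, 5.58% were called higher and the median was -0.03. MLKL, the pore-forming executor of necroptosis, stood at 17.5, 14.7 and 26.2 CPM untreated and 102, 107 and 138 CPM treated (log2 fold change 2.56, SE 0.26, edgeR adjusted p = 0.000353). RIPK3, the kinase that links ZBP1 to MLKL, was at 0 in all 6 libraries, with 35.8% of its last 1000 bases shared with another gene. CASP1, the inflammasome protease, went from 0, 0 and 1 counts to 22, 78 and 51 counts (edgeR adjusted p = 0.000716), a pooled ratio with a counting interval of 28.3 to 6366. PYCARD, the adaptor that recruits CASP1, was at 0 throughout and shares no exonic bases. So MLKL and CASP1 rose, while RIPK3 and PYCARD, which act upstream of them, had no counts.

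In the same list GSDMD, the pore former cut by CASP1, rose from 26.4 ± 7.35 to 69.6 ± 7.93 CPM (log2 fold change 1.40, edgeR adjusted p = 0.00629). CFLAR, an inhibitor of CASP8, rose from 86.2 ± 3.54 to 187 ± 13.9 CPM (1.12, adjusted p = 0.00292). CASP8 itself rose from 8.93 ± 0.79 to 23.1 ± 3.01 CPM (1.37, adjusted p = 0.00709, 0.0501 without untreated replicate 2). RIPK1, which ZBP1 can engage, rose from 20.1 ± 7.08 to 43.3 ± 6.81 CPM (1.10, edgeR adjusted p = 0.0417). Its call was lost on library totals alone (0.105) and in every fit without a single library except that without untreated replicate 3: the adjusted p was 0.0945 and 0.171 without untreated replicates 1 and 2, and 0.0569, 0.102 and 0.156 without treated replicates 1, 2 and 3. FADD and CASP10 did not pass, with log2 fold changes of 0.37 and 1.26.

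The stress-translation list holds the gene of eIF2α, the other eIF2α kinases EIF2AK1, EIF2AK3 and EIF2AK4, and genes that act after them. It is therefore not a list of genes downstream of EIF2AK2 alone. None of its 9 tested genes passed in either direction, with 1 lower at an unadjusted p under 0.05 (edgeR) and a median of 0.03. With 8.14% of all genes called, and 8.85% lower at an unadjusted p, a list of 9 genes with these counts is near the background. ATF4, the factor whose translation is favoured when eIF2α is phosphorylated, stood at 224, 206 and 198 CPM untreated and 256, 192 and 218 CPM treated (log2 fold change 0.09). TRIB3, one of its target genes, stood at 215 ± 62.6 and 133 ± 49.2 CPM (-0.69, edgeR adjusted p = 0.241). Both genes had overlapping groups. The control of ATF4 is largely on translation, which RNA counts do not measure.

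**Figure D4:**
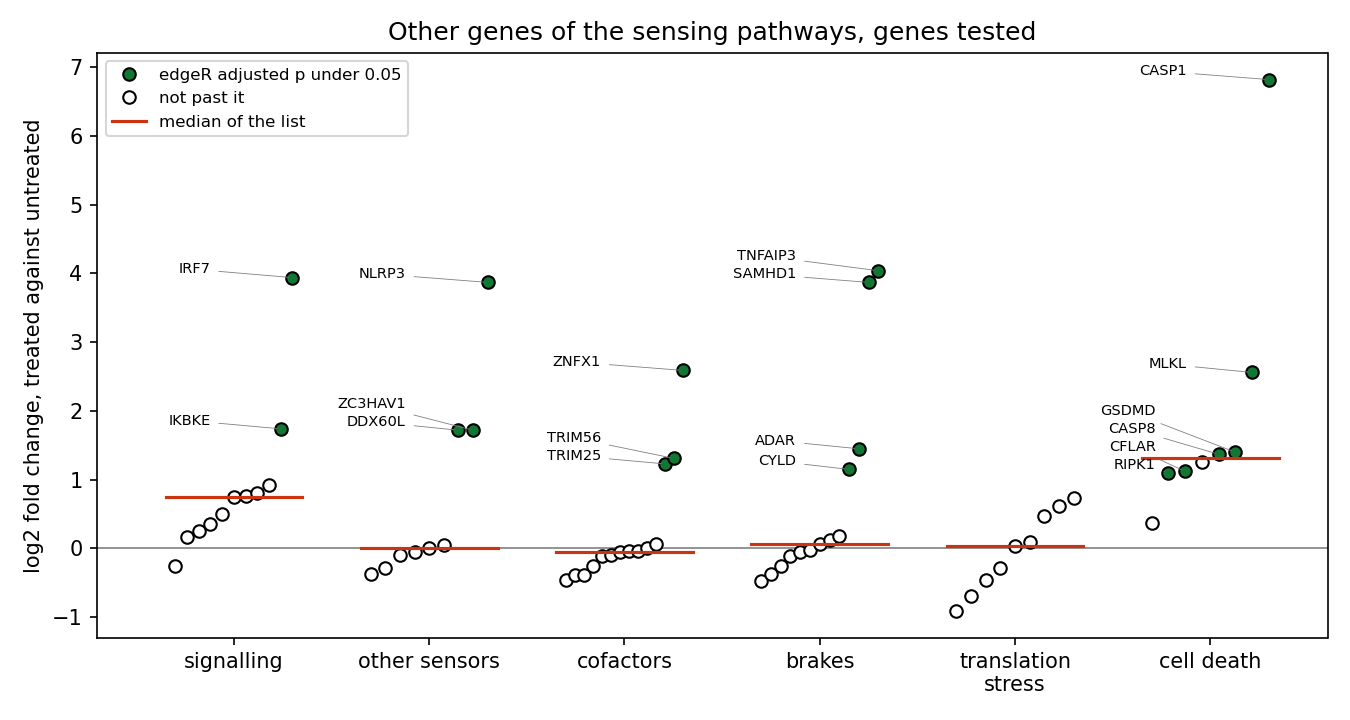
Log2 fold change, treated against untreated, of every tested gene in the 6 pathway lists that had tested genes, 1 point for each gene, filled where the edgeR adjusted p was under 0.05, with a line at the median of each list. The filled points lie above 0 in every list that has any, the median of the death partners is 1.31, and the stress-translation list has no filled point.

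The listed interferon genes were at or near 0 in both groups. Not all of them are genes that these routes induce, since the list includes IFNG, the gene of the added interferon. None of the 10 listed interferon genes was tested, 7 had 0 counts in all 6 libraries, IFNB1 among them, and no library held more than 3 counts for any of the 10. IFNL1 had 0 counts in every untreated library and 0, 2 and 3 in the treated ones. Summed over the list, the level was 0 CPM in each untreated library and 0.289, 0.903 and 0.856 CPM in the treated ones, about the level of a few reads. Any difference in them was not detectable at this depth.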

How the data were processed

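Gene expression was measured by direct RNA sequencing of poly(A)+ RNA in 3 untreated and 3 IFNγ plus TNF libraries of RCC4 cells. The deposited values are raw read counts per gene, made by the authors with featureCounts 2.0.1 in long-read, strand-specific mode on exons of Ensembl 105 (GRCh38), per the file headers; the submitters' processing notes name minimap2 2.24, SAMtools 1.16 and featureCounts 2.0.0. The word dmso occurs in the alignment names of the headers, while the labels mention no vehicle. Groups and replicate numbers came from the sample titles. The table of names matched 61369 of 61541 identifiers, and DDX58 was matched through its synonym RIGI.

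Counts were tested with edgeR 4.0.16 (R 4.3.3; TMM, filterByExpr, quasi-likelihood F test, Benjamini-Hochberg adjustment over 10067 genes, threshold 0.05), checked on simulated counts. SE is the absolute log2 fold change over the square root of F, and the 95% intervals are normal approximations. CPM uses TMM library sizes. Shared bases were computed from the exons in the tables. The 15 alternatives covered other normalisations and filters, a replicate term, DESeq2 1.42.0, limma 3.58.1 voom, leaving out libraries and, added after the data were seen, 1 surrogate variable (sva 3.50.0) and leaving out both libraries numbered 3. Named were all members and, for each list, the genes past the threshold (up to 6) and the 2 most abundant tested genes that missed it. The members and lists were chosen with earlier results of these data known. Planned ratios with DDX58 were not computed, because it had almost no counts.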

Additional observations from a re-analysis of the deposited data

How the results depend on the processing

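Across the alternatives the number of members called higher ran from 4 to 7 and none was called lower. IFIH1, DHX58, ZBP1 and STING1 passed in all 15, and no tested member changed direction in any. ZBP1 had entered the main fit through the treated group alone, and IFIH1 and DHX58 largely through it. Over all genes, 819 passed. The count was 1328 with the filter lowered to 1 count and 1866 with 1 surrogate variable, and it ran from 455 to 1178 when each library was left out in turn, the lowest without treated replicate 3, next to 465 without untreated replicate 2. Library totals alone gave 485 higher and 364 lower against 562 and 257, with a median log2 fold change of -0.13 against -0.03. DESeq2 called 968 genes.

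With the replicate number as a block, 1513 genes and 7 members passed, and 23 list genes rose and 1 fell. Whether the replicate numbers pair the libraries was not settled. Deviations from the group mean correlated at 0.651, -0.004 and 0.374 for numbers 1, 2 and 3. Between libraries of different numbers the correlations ran from -0.674 to 0.413.

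The log2 ratio of IFIH1 to DHX58 differed between groups by -0.55 to 0.30 when single libraries were left out, changing sign without untreated replicate 2 (0.20) and without treated replicate 1 (0.30). That of CGAS to STING1 ran from -1.42 to -0.57. Ratios with DDX58 were not run. Depth limits what can be said of genes with few counts, such as TLR3, TBK1 and the interferon genes, since 3 counts stand for up to 0.866 CPM.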

Other observations

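As with DDX58, a count of 0 or 1 over all libraries stood beside a 3′ end shared with another gene on the same strand in some genes of the pathway lists. ASNS, an ATF4 target that makes asparagine, was at 0 in all 6 libraries with 98.9% of its last 1000 bases shared. RNASEH2A, a subunit of the enzyme that removes RNA from DNA hybrids, had 1 count in all, with 60.4% of those bases shared. By contrast RNF125, NLRC3 and PYCARD were at 0 with 0% of those bases shared. Whether the shared bases set these counts was not tested.

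The non-member AIM2, a DNA sensor of the same family as IFI16, had 0 counts in every untreated library and 1, 6 and 2 in the treated ones, too few to be tested and named after its values were seen. PDGFRB, read here as a fibroblast marker, was the one tested gene of that list to pass, from 10.3 ± 0.867 to 2.72 ± 0.127 CPM (edgeR adjusted p = 0.0049).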
